A study of Arabidopsis thaliana with 6 samples.

Results

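The members described here were introns of 81 to 499 nt that were left unspliced in a sizeable share of the transcripts of Arabidopsis seeds. They were chosen by their own read counts. An intron qualified when the splicing table listed it as an intron bin with a single exclusion junction, when at least 30 reads were counted on it in each condition, and when its percent intron retention (PIR) was 20% or more in at least one condition. PIR was the sum of the reads over the exon–intron and the intron–exon boundary, divided by that sum plus 2 times the reads of the junction that joins the flanking exons, with the reads of the libraries of a condition added up. Of 233559 lines in the table, 68085 were such introns and 48745 of these had the length and the reads. The rule found 699 members in 621 genes, which was 1.43% of the 48745.

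All 6 libraries came from wild-type Col-0 seeds, and RNA was taken from whole seeds, so that embryo, endosperm and seed coat were mixed. Every seed batch was imbibed for 2 h in darkness, given a 20 min far-red pulse to lower the active phytochrome left from the mother plant, and stratified for 3 days at 5 °C in darkness. The Rp group then received a red pulse of 20 min (calculated Pfr/P of 0.87) and the FRp group a far-red pulse of 20 min (calculated Pfr/P of 0.03). The fluence rate was 0.05 µmol m-2 s-1 for the red and 42 µmol m-2 s-1 for the far-red pulse, so the groups differed in fluence rate as well as in wavelength. Seeds were collected 12 h after the pulse, with 3 biological replicates in each group. The comparison of Rp with FRp asks how imbibed seeds differed 12 h after a red or a far-red pulse. The parts of phytochrome state and of fluence rate in it cannot be told apart.

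Introns are removed from nuclear transcripts by the spliceosome, which reads a donor site at the 5′ end of the intron, a branch point, and an acceptor site at the 3′ end. Most introns are handled by the major spliceosome, and a small class with its own donor and branch point sequences by the minor, U12-type spliceosome. Intron retention is the commonest kind of alternative splicing in plants. A retained intron in a coding region usually brings a stop codon into the reading frame, and such transcripts may be degraded by nonsense-mediated decay or stay in the nucleus.

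The reads counted on genes, in units of 1e+06, numbered 29.8, 26.1 and 31.3 in the Rp libraries and 24.2, 32.4 and 29.7 in the FRp libraries. Seed storage and embryo genes differed strongly between the groups. CRA1, a 12S storage globulin, was at 2408 to 3361 CPM (reads scaled to library size by TMM) in Rp and at 56883 to 65620 CPM in FRp, and the 4 other reserve and embryo genes checked (CRU3, SESA1, OLEO1 and EM1) were also lower in every Rp library. The endosperm genes EPR1 (1207 to 2379 CPM in Rp, 6634 to 9085 CPM in FRp) and MAN7 (109 to 139 CPM in Rp, 41.7 to 48.4 CPM in FRp) moved in opposite directions. The seed coat gene BAN and the leaf gene LHCB1.1 stayed at or below 2.04 CPM. The part of these differences in the results on introns was not tested.

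A few members carry the findings below, and their sequences show what is left in the transcript. The first set holds a member far lower in Rp (EMB3103 I009, chr1:3643583-3643731, plus strand), one with no read on its own junction in FRp (AT5G20165 I001, chr5:6805871-6805962, minus strand), one at 20% or more in Rp only (NYC1 I001, chr4:7684606-7684699, minus strand) and one with a high PIR in both groups (AT1G53780 I010, chr1:20076206-20076306, minus strand). Intron names are those of the splicing table, whose numbers count bins and not the order in the transcript. All 4 lie in coding regions on TAIR10.1 (RefSeq). The capitals mark the first and last pair of bases and, where one lies within the intron, the first stop codon in the frame of the upstream exon. In AT5G20165 I001 the first stop codon in frame spans the exon–intron boundary and is not marked.
EMB3103 I009: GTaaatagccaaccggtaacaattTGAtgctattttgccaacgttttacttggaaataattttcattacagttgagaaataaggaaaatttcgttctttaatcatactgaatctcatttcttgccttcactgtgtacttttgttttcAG
AT5G20165 I001: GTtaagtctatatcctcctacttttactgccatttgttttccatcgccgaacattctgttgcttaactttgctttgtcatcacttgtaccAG
NYC1 I001: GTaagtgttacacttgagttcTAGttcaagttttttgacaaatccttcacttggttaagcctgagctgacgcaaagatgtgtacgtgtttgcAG
AT1G53780 I010: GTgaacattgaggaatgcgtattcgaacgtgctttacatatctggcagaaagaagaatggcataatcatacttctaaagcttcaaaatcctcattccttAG

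The pooled PIR of the 699 members had a median of 23.7% in Rp (quartiles 14.6 and 35.7%) and of 27.1% in FRp (quartiles 21.5 and 39.6%). The medians of single libraries were 23.8, 25.4 and 22.6% in Rp and 27.2, 30.7 and 26.8% in FRp. The other 48046 introns of the same length range and read minimum had medians of 0.331% in Rp and 0.298% in FRp. These values chose the members and are given as a description. With the reads of all these other introns added up, their PIR was 0.568 to 0.616% in the Rp libraries and 0.648 to 0.798% in the FRp libraries. The mean over the same introns was 1.15, 1.27 and 1.11% in the Rp libraries and 1.26, 1.3 and 1.11% in the FRp libraries, so the groups overlapped on that measure. The part of these differences in the members' values was not tested.

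By condition, 311 members were at 20% or more in both, 122 in Rp only and 266 in FRp only. A PIR of 50% or more was reached by 147 members in at least one condition and by 54 in both. Only 6 were at 80% or more in both. Many lay close to the limit, with 206 members (29.5%) under 25% in their higher condition. Among introns with at least 100 reads in each condition, those just inside the limit were AT1G24265 I009 (5.44% in Rp and 20.0% in FRp), AT2G39260 I003 in the gene of the decay factor UPF2 (2.88% and 20.0%) and HAL3A I001 (20.0% and 7.77%). Just outside were mtLPD1 I002 (19.8% in Rp and 12.4% in FRp), AT2G25760 I013 (13.8% and 19.8%) and AT1G79950 I018 (19.8% and 9.96%). In AT1G24265 I009 the donor side held 6.35% of the boundary reads, so its PIR rests mostly on the acceptor side.

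**Figure D1:**
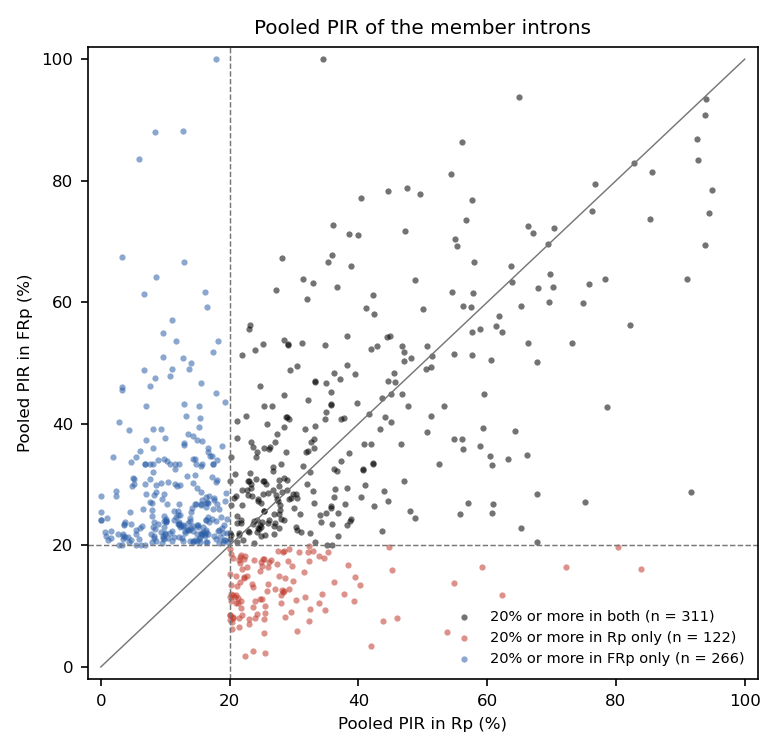
Pooled PIR of each of the 699 members in Rp (x axis, percent) and in FRp (y axis, percent), 1 point per intron. Dashed lines mark the 20% limit and the solid line equal PIR. The 311 members at 20% or more in both conditions scatter on both sides of the line of equality, and 2 members lie at 100% in FRp.

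The spread between replicates was wide at these read numbers. A member had a median of 107 reads in Rp and 108 in FRp, and the standard deviation of PIR over the 3 libraries had a median of 6.51 percentage points in Rp and 7.18 in FRp. The other introns had more reads, with medians of 174 in Rp and 135 in FRp. Both boundaries usually carried reads. Among the 688 members with at least 20 boundary reads, the donor side held a median of 42.2% of them, against 40% over 6345 other introns, and it held under 20% or over 80% in 98 members (14.2%) against 8.53% of the others. With PIR computed from each boundary alone and both required to reach 20% in the same condition, 449 introns qualified.

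The members differed from the other introns in where they lay. Of the 699, 557 (79.7%) lay in the coding part of their transcript, against 96.8% of the others. A further 58 (8.30%) lay in a 5′ UTR and 64 (9.16%) in a 3′ UTR, against 1.90% and 1.06% of the others, and 13 lay in noncoding transcripts. Read the other way, 11.2% of the 572 measured introns in 3′ UTRs were members, as were 5.97% of the 971 in 5′ UTRs, 1.18% of the 47081 in coding regions and 13 of 64 in noncoding transcripts. The 7 members left were not matched to an annotated transcript.

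Members were longer, with a median of 136 nt against 104 nt, and the share of measured introns that were members was 0.998% from 81 to 99 nt, 1.27% from 100 to 149 nt and 2.83% from 400 to 499 nt. They lay more often at the ends of the gene. The first intron of the transcript made up 21.8% of the members against 11.2% of the others, the last intron 29.5% against 17.9%, and the only intron 7.66% against 1.48%. An only intron is also counted as a first and as a last intron. The transcripts with a member had a median of 6 introns, against 9, and the part of intron number in the shares of first and last introns was not tested. Among the members, those at 20% or more in FRp only lay less often in the last intron (17%) than those in Rp only (39.3%) or in both (36.4%). These shares are descriptions with no test.

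**Figure D2:**
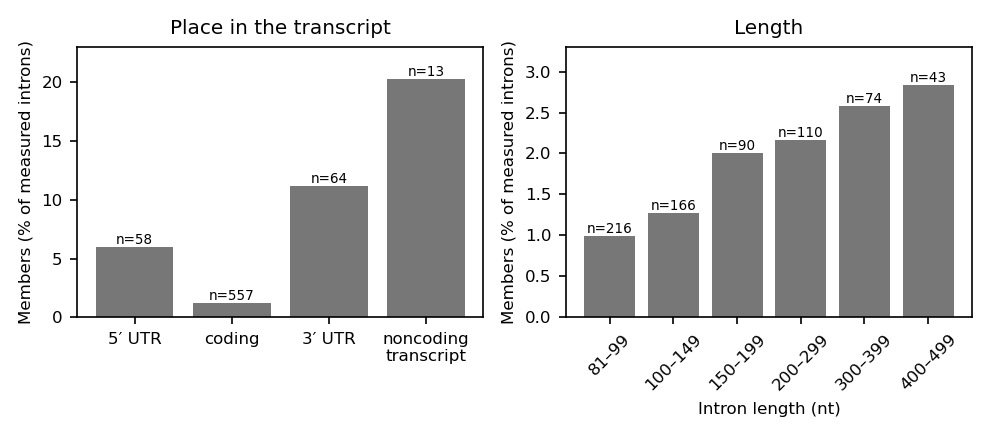
Members as a percentage of the measured introns of 81 to 499 nt, by place in the transcript (left) and by length in nt (right). The number above each bar is the count of members. Introns of 3′ UTRs (11.2%) and of noncoding transcripts (20.3%, 13 members) stand above coding introns (1.18%), and the share grows from 0.998% in the shortest class to 2.83% in the longest.

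The gene models already held many of these introns as exon sequence. For 216 members (30.9%) at least 1 annotated transcript of the gene retained the intron, against 2.44% of the others. Another gene overlapped 53 members (7.58%, 46 of them on the opposite strand), against 0.922% of the others. The sources used here do not give the strand setting of the counts, so reads over these 53 introns may come from either gene, and 646 members remained without them. Another junction of the table shared one end with 86 members (12.3%) against 0.864% of the others, so for these the flanking exons were joined in more than one way. PIR does not count such junctions as splicing, and it overstates retention where they are used. With their reads added to the spliced reads, an alternative chosen after seeing the data, 35 of the 86 were still at 20% or more in a condition and 51 were not, which left 648 members. The number at 20% or more in both conditions was then 269. The introns described below for which this changes the picture are given with both values.

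Base composition was close to that of other introns. The GC content of members had a median of 34.1% against 33.3%, and the T content of 40% against 40.8%. The 24 nt of exon next to the splice sites had a median GC content of 41.7% against 45.8%. All 699 members began and ended with known pairs of splice site bases on TAIR10.1. GT–AG was found in 678 (97.0% against 98.9%), GC–AG in 16 (2.29% against 0.999%) and AT–AC in 5 (0.715% against 0.0687%). The donor GTAAGT, which pairs well with U1 snRNA, began 6.87% of the members and 9.11% of the others.

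Introns with a donor of the U12 type were more often members. The letters ATATCC or GTATCC stood at the start of 18 members (2.58%) and of 222 others (0.462%), and 7.50% of the 240 measured introns with this start were members. In 15 of the 18 the letters TT followed, against 125 of the 222 others with the donor. The letters CCTTAA, part of the branch point sequence known for this class, were searched on the transcript strand in the last 40 nt. They occurred in 3 of the 18, in 35 of the 222 others with the donor, and in 0.887% of all other introns. The median PIR of the 240 was 1.91% in Rp and 2.33% in FRp. Of the 18 members, 4 were at 20% or more in both conditions, 4 in Rp only and 10 in FRp only. Of the 4 in Rp only, CKB3 I001 and CKB4 I001 shared an end with another junction. With it counted as splicing, their pooled PIR was 10.3% and 11.8% in Rp and 5.49% and 8.20% in FRp, under the limit.

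The sequences below show the 6 donor letters, and CCTTAA where it was found, in capitals. They lie at chr1:20295164-20295244, minus strand (NHX5 I011, with AT–AC ends), chr1:20294365-20294465, minus strand (NHX5 I006), chr4:6133274-6133382, plus strand (RABG3A I002), chr3:22270845-22270992, minus strand (CKB3 I001) and chr4:17353526-17353626, minus strand (AT4G36850 I001), all in coding regions.
NHX5 I011: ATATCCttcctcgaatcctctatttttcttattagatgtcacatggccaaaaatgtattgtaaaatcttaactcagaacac
NHX5 I006: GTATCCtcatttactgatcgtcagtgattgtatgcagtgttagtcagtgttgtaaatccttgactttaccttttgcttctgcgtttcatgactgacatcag
RABG3A I002: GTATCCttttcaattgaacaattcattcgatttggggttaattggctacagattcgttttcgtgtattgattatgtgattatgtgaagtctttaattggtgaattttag
CKB3 I001: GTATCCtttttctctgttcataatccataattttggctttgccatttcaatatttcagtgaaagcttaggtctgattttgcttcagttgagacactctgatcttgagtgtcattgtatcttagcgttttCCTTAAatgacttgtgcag
AT4G36850 I001: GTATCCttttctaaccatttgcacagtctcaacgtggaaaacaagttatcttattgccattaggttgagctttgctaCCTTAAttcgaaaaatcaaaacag

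The U12-type member with the most reads was in AT4G36850, which encodes a PQ-loop membrane protein. Its intron I001 had a PIR of 16.3, 17.6 and 13.1% in Rp and of 21.9, 23.3 and 20.1% in FRp, and the other 9 measured introns of the gene had a median of 1.64% in Rp and 1.62% in FRp. CKB3 I001, in a gene for a regulatory subunit of casein kinase II, stood at 29.0, 32.8 and 47.1% in Rp and 17, 23 and 15.7% in FRp. In CKB3 another junction that shared one end made an intron of 151 nt, with 166, 160 and 190 reads in Rp and 210, 274 and 259 in FRp, and with it counted as splicing I001 stood at 10.3, 9.05 and 11.4% in Rp and 4.66, 7.07 and 4.43% in FRp. The groups did not overlap in either gene, and because each intron passed the limit in one condition only, no test is given. SDG38 I004, in a SET domain gene, stood at 34.5, 61.2 and 41.0% in Rp and 48.5, 56.3 and 56.2% in FRp. ARV1 I006 stood at 26.3, 17 and 24.8% in Rp and 40.5, 41.6 and 29.9% in FRp. Both were at 20% or more in both conditions and neither difference was called (adjusted p = 0.785 for SDG38 and 0.524 for ARV1). AT1G73350 I002, in an ankyrin repeat gene, stood at 11, 23.1 and 26.3% in Rp and 29.1, 29.9 and 26.3% in FRp.

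In the 557 coding members, retention mostly broke the reading frame. A stop codon in frame with the upstream exon lay within or at the start of 516 (92.6%), against 90.4% of the other coding introns, at a median of 29 nt into the intron against 30 nt. The length was a multiple of 3 in 31.1% against 33.7%. Only 7 members (1.26%) were a multiple of 3 without a stop, against 2.75% of the others. On these measures the members were close to other introns.

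Most members with another measured intron in the gene were its only one at 20% or more. Reads counted per intron do not show which introns are retained together in one transcript. Another constitutive intron with at least 30 reads in each condition was present in the gene of 599 members. In 444 of these (74.1%) no other intron reached 20%. The median over members of the other introns' median PIR was 1.01% in Rp and 0.921% in FRp, and it was under 5% in both conditions for 470 (78.5%). The 48046 introns of this length that were not members had medians of 0.331% in Rp and 0.298% in FRp, taken over single introns. Only 1.43% of the measured introns of this length were members, and the share expected without grouping by gene was not computed. A single member was found in 558 genes, 2 in 52, 3 in 7 and 4 in 4. In 37 of the 63 genes with several members, at least 2 members were neighbours in the transcript.

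NHX5, an endosomal cation/proton exchanger gene, held 4 members among 17 measured introns. I006 was spliced in Rp, at a PIR of 22.6, 12.8 and 17.6%, and had no junction read among 95 reads in FRp, at 100% in each library. A count of 0 junction reads allows a junction share of up to 3.16% there (3 reads, counting error only). The other 3 members of the gene went the other way in pooled PIR: I008 stood at 34.1% in Rp and 23.9% in FRp, I009 at 28.5% and 12.5%, and I011 at 30.3% and 22.9%. The 16 measured introns beside I006 had a median of 1.07% in Rp and 1.18% in FRp. I008 and I011 were at 20% or more in both conditions and were not called (adjusted p = 0.743 and 0.831).

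AT2G38330, which encodes a MATE efflux protein, had 4 members, 3 of them its last introns. I010 stood at 10.4, 13.9 and 7.04% in Rp and 26.9, 45.8 and 22.2% in FRp, with 14.6% of its boundary reads on the donor side. I011 stood at 28.2, 25.8 and 32.6% in Rp and 57.1, 63.6 and 37.9% in FRp, and I012 at 17.8, 10.6 and 23.4% in Rp and 43.9, 35.1 and 28.6% in FRp. Its other introns were also high, with a median of 10.5% in Rp and 19.1% in FRp beside I011. The groups did not overlap in these 3, and the difference in I011, the one at 20% or more in both conditions, was not called (adjusted p = 0.264). The fourth, I004, rested on 46 reads in Rp and 37 in FRp and was at a pooled 9.52% in Rp and 27.6% in FRp. AT3G46220, a gene for an E3 ligase of the ubiquitin-like UFM1 pathway, had 4 members at a pooled PIR of 8.57 to 25.9% in Rp and 26.1 to 28.7% in FRp. Its best covered one, I021, stood at 28.3, 29.2 and 18.7% in Rp and 23.7, 35.5 and 24.6% in FRp, with overlapping groups.

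Some members had a high PIR in both groups. In AT1G53780, which encodes an ATPase of the proteasome regulatory particle, I010 had a PIR of 90.7, 92.9 and 97.4% in Rp and of 94.4, 95.2 and 89.6% in FRp, while the 14 other measured introns had a median of 0.753% in Rp and 0.180% in FRp. The sequence given above for this intron holds no stop codon in frame, and its length is not a multiple of 3. Another junction that shared one end with it made an intron of 104 nt and had 21, 13 and 26 reads in Rp and 22, 27 and 37 in FRp, against 6, 3 and 2 in Rp and 7, 9 and 12 in FRp on its own junction. With both junctions counted its PIR was 68.4, 70.9 and 72.5% in Rp and 80.2, 83.2 and 67.8% in FRp. VLN3, an actin-bundling villin, retained I001 in its 3′ UTR at 100, 87.3 and 90.1% in Rp and 82.0, 79.6 and 89.1% in FRp. UMAMIT38 I003, in an amino acid transporter family gene, stood at 76.9, 78.9 and 75.8% in Rp and 73.3, 84.3 and 79.2% in FRp, and AT3G20898 I001 at 88.1, 77.3 and 89.7% in Rp and 78.6, 78.8 and 66.7% in FRp. None of these 4 was called (adjusted p between 0.401 and 0.963).

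The change between Rp and FRp was tested with edgeR's quasi-likelihood test on boundary against junction reads, over all 28466 splicing events that passed the filters, and an event was called at an adjusted p under 0.15 with a difference of more than 0.5 percentage points. Of the members, 695 were tested. For members at 20% or more in one condition only, the rule itself fixes the direction, so the test is used only for the 308 tested members at 20% or more in both. Of these, 8 were called higher and 10 lower in Rp, and 45 had an unadjusted p under 0.05. Over all tested events, 1.02% were called higher and 1.44% lower in Rp. The groups of 3 libraries did not overlap in 42 of the 308 (13.6%) with PIR higher in Rp and in 45 (14.6%) with PIR lower in Rp, against 8.79% and 8.7% over the 20925 tested introns of this length. Since PIR chose the members, nothing is read from these counts.

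All 18 called differences were over 10 points. Of the 18, 5 lay in introns that shared an end with another junction, all of them lower in Rp (AT5G20165 I001, AT1G73490 I004, RS41 I006, SCL33 I005 and RS2Z32 I006). With the other junctions counted as splicing and the test repeated over all events, 3 of these were still called, but none of the 5 was at 20% or more in both conditions, and 8 members were called higher and 5 lower in Rp among those that were. The one furthest above FRp was in AT5G58540, a protein kinase gene. I003 stood at 100, 93.5 and 78.9% in Rp against 33.3, 18.5 and 42.9% in FRp (log2 change of the boundary to junction ratio 4.57 ± 1.03 SE, adjusted p = 0.00244). In the same gene I005, a member at 20% or more in Rp only, stood at 88.6, 58.6 and 93.3% in Rp and 24.6, 15.6 and 9.52% in FRp. The other introns of the gene went the same way, with a median of 87.1% in Rp and 13.7% in FRp beside I003, and its mRNA was not called (log2 change -0.35).

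AT1G61430 I001, in an S-locus lectin kinase gene, stood at 78.6, 72.4 and 71.4% in Rp against 23.4, 27.0 and 30.6% in FRp (log2 change 2.96 ± 0.88, adjusted p = 0.0631). AT3G45443 I001, in the 3′ UTR of a gene of unknown function, stood at 61.8, 64.7 and 55.2% in Rp against 25.4, 27.8 and 22.3% in FRp (2.19 ± 0.67, adjusted p = 0.0747). AT1G20100 I003, in a DNA ligase-like gene, stood at 58.1, 59.1 and 62.8% in Rp against 24.6, 43.6 and 33.3% in FRp (1.56 ± 0.50, adjusted p = 0.0922). GAUT7, a galacturonosyltransferase of pectin synthesis, retained I001 of its 3′ UTR at 96.0, 93.9 and 94.5% in Rp against 78.5, 73.6 and 86.3% in FRp (2.29 ± 0.66, adjusted p = 0.0472). In each of these introns every Rp library lay above every FRp library. The mRNA of GAUT7 and AT1G20100 was higher in Rp (log2 change 1.58 and 0.79), that of AT3G45443 lower (-0.64), and that of AT1G61430 not called (-0.37).

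Introns lower in Rp were led by AT5G20165 I001, in a kish-A-like gene. It stood at 46.9, 18.6 and 38.1% in Rp against 100% in each FRp library, where 0 of 67 reads crossed its own junction, which allows a share of that junction of up to 4.48% (adjusted p = 3.17e-04). Another listed junction with one end in common made an intron of 346 nt and had 151, 118 and 131 reads in Rp and 89, 123 and 117 in FRp, more than its own junction had in any library (17, 24 and 13 reads in Rp and 0 in FRp). With that junction counted, I001 stood at 8.20, 3.73 and 5.26% in Rp against 9.18, 9.56 and 8.95% in FRp and was not called (-0.75 ± 0.57, adjusted p = 0.618). EMB3103, which encodes a pentatricopeptide repeat protein of the family that acts on organelle RNA, had I009 at 27.8, 31.7 and 25.4% in Rp against 70.7, 63.6 and 71.1% in FRp (-2.45 ± 0.54, adjusted p = 0.00175). Its other 8 measured introns had a median of 0% in both groups. TIM17-3, a subunit of the mitochondrial inner membrane import channel, had I001 of the 5′ UTR at 24.7, 22.6 and 22.5% in Rp against 87.5, 44.9 and 52.5% in FRp (-2.24 ± 0.77, adjusted p = 0.142). AT1G73490 I004, in a gene for an RNA-binding protein with an RRM domain, stood at 60.4, 44.7 and 41.9% in Rp against 71.8, 82.8 and 80.7% in FRp (-1.95 ± 0.66, adjusted p = 0.124). A junction of 232 nt shared one end with it and had 97, 64 and 147 reads in Rp and 29, 55 and 53 in FRp. With that junction counted, I004 stood at 20.7, 18.9 and 16.2% in Rp against 41.2, 37.9 and 35.4% in FRp and was not called (adjusted p = 0.161). The groups did not overlap in any of these 4, on either count. EMB3103 mRNA was lower in Rp (log2 change -1.15), and the mRNA of the other 3 was not called.

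**Figure D3:**
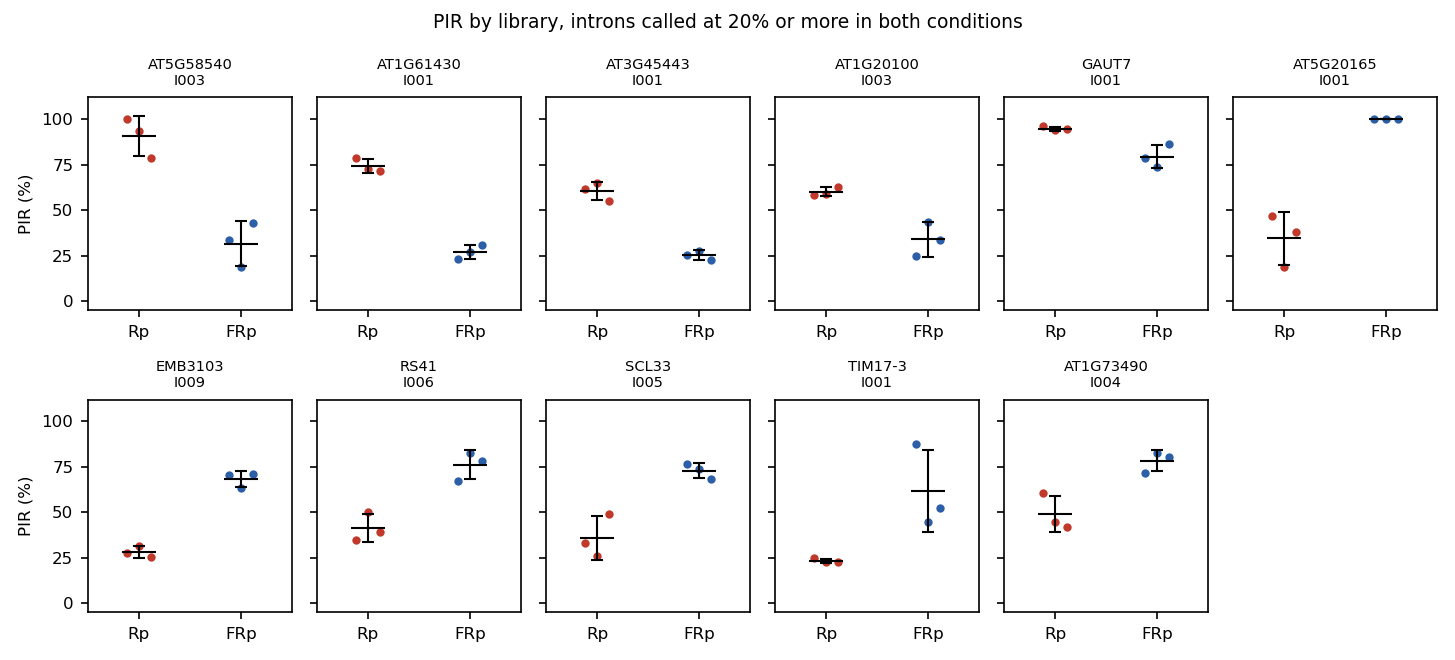
PIR (percent, y axis) in each library for the 11 introns named by rule among those called at 20% or more in both conditions, with Rp left of FRp. Points are libraries, the horizontal bar is the mean and the whisker 1 SD (n = 3). The first 5 panels are higher in Rp and the other 6 lower, and the groups do not overlap in any panel. For AT5G20165, AT1G73490, RS41 and SCL33 another junction shared an end with the intron and is not counted in the values shown.

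With each library left out in turn, AT5G58540 I003, AT5G20165 I001, EMB3103 I009, RS41 I006 and SCL33 I005 were called every time. With limma on log2 ratios only AT5G20165 I001 of these was called (adjusted p = 0.0551), and the others were not (0.156 for AT5G58540, 0.197 for EMB3103, 0.231 for RS41 and 0.224 for SCL33). The edgeR call of AT5G20165 I001 was lost with the other junction counted as splicing, as given above (adjusted p = 0.618). AT1G61430 I001 was not called without Rp replicate 1 (adjusted p = 0.313), FRp replicate 1 (0.209) or FRp replicate 2 (0.215), and GAUT7 I001 not without Rp replicate 1 (0.258), FRp replicate 1 (0.180) or FRp replicate 2 (0.344). AT3G45443 I001 stayed called only without Rp replicate 3 (0.136, otherwise up to 0.288) and AT1G20100 I003 only without FRp replicate 2 (0.104, otherwise up to 0.397). TIM17-3 I001 (0.182 to 0.478) and AT1G73490 I004 (0.169 to 0.417) were not called with any library left out.

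The 122 members at 20% or more in Rp only are given as levels, with no test. Their pooled PIR had a median of 25.4% in Rp and 13% in FRp. NYC1, the chlorophyll b reductase that starts the breakdown of chlorophyll b, had I001 at 40.6, 47.4 and 37.7% in Rp against 2.69, 3.99 and 3.24% in FRp, over 585 reads in Rp and 708 in FRp. Its 8 other measured introns had a median of 4.96% in Rp and 1.01% in FRp, and 2 of them also reached 20% in a condition. AT1G48280 I006, in a hydroxyproline-rich glycoprotein gene, stood at 57.8, 47.1 and 56.1% in Rp against 2.86, 3.26 and 11.8% in FRp, and its 4 other measured introns had a median of 14.5% in Rp and 1.39% in FRp. In AT1G15160, a MATE efflux gene, I005 stood at 75, 84.6 and 82.4% in Rp against 14.9, 20.0 and 24% in FRp, and the 2 other measured introns had a median of 82.6% in Rp and 22.3% in FRp, so retention was not limited to the member. AT3G11745 I002 stood at 40.5, 37.1 and 42.3% in Rp against 21.2, 12.0 and 10.3% in FRp. The mRNA of NYC1, AT1G48280 and AT1G15160 was lower in Rp (log2 change -1.04, -1.15 and -1.12).

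The 266 members at 20% or more in FRp only had a median pooled PIR of 12.1% in Rp and 25.5% in FRp. Beside NHX5 I006, the widest differences named by rule were in AT1G63855, AT3G13340, RABG3A and AT4G39050. AT1G63855 I001, in the 3′ UTR of a putative methyltransferase gene, stood at 5.66, 14.3 and 5.88% in Rp against 56.8, 100 and 50% in FRp. AT3G13340 I002, in the 5′ UTR of a WD40 repeat gene, stood at 7.69, 4.35 and 2.17% in Rp against 37.8, 43.9 and 58.1% in FRp. RABG3A, a Rab GTPase gene, had its U12-type intron I002 at 10.7, 15.9 and 7.44% in Rp against 46.2, 51.2 and 53.8% in FRp, with a median of 0.604% in Rp and 0.0743% in FRp over 4 other introns. AT4G39050 I020, in a kinesin gene, stood at 12.0, 18.2 and 2.86% in Rp against 57.9, 47.2 and 40.7% in FRp, and its neighbours I019 and I021 were members too, at 1.16% and 0% in Rp and 20.9% and 28.2% in FRp.

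Genes whose product names speak of splicing, RNA binding, phytochrome, abscisic acid, gibberellin, dormancy or germination held 22 members in 18 genes, among 956 measured introns. Of these 22, 15 were at 20% or more in both conditions, 4 in Rp only and 3 in FRp only. Among them was AT3G04500 I003, an intron of an RRM protein gene that stood at 9.14, 11.7 and 9.23% in Rp against 40.8, 34.4 and 40.1% in FRp. The donor side held 9.70% of its boundary reads over the 6 libraries, so its PIR rests mostly on the acceptor side. AT1G06960 I006 stood at 24.5, 29.3 and 16.9% in Rp and 17.1, 25.4 and 22.5% in FRp. SR45a, an SR-like splicing factor, had I003 of the 3′ UTR at 26.5, 25 and 33.3% in Rp and 27.7, 36.4 and 46.7% in FRp. The groups of these last 2 introns overlapped, and neither was called (adjusted p = 0.956 and 0.799).

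SR proteins bind exonic sequences and help to define splice sites, and their own genes are known for alternative splicing. After the values had been seen, the 18 SR protein genes of Arabidopsis were looked at as a family. All 18 had measured introns of this length, 93 in all, and 9 of these (9.68%) were members, in 7 genes: SR34, SR34b, SCL33, RS31a, RS2Z32, RS40 and RS41. An annotated transcript retained 8 of the 9. The coding members with the 3 widest differences are printed here. They lie at chr1:20631723-20631884, plus strand (SCL33), chr2:19137682-19137830, minus strand (RS31a) and chr5:21131888-21132086, plus strand (RS41). The capitals mark the terminal bases and the first stop codon in frame.
SCL33 I005: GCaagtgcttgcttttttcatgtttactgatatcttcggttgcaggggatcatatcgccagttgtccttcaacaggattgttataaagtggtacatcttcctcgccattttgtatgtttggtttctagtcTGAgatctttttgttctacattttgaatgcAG
RS31a I004: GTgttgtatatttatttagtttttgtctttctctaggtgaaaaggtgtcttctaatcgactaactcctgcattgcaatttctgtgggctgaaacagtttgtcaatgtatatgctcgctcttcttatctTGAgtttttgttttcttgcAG
RS41 I006: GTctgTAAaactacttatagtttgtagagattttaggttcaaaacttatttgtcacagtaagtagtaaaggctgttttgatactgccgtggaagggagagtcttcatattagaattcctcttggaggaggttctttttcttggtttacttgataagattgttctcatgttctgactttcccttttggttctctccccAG

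SCL33 I005 begins with GC and not GT. The first stop codon in frame stands 6 nt into RS41 I006, 131 nt into SCL33 I005 and 129 nt into RS31a I004. The frame is that of an annotated transcript in which this intron is spliced at its own ends, and other transcripts of the gene may differ.

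RS41 I006 stood at 35, 50 and 39.1% in Rp against 67.4, 82.9 and 78.2% in FRp (log2 change -2.25 ± 0.53, adjusted p = 0.00565). SCL33 I005 stood at 32.9, 25.9 and 49.3% in Rp against 76.5, 74.0 and 68.2% in FRp (-2.28 ± 0.52, adjusted p = 0.00277). RS2Z32 I006, in the 5′ UTR of the reference transcript, stood at 20.0, 14 and 27.8% in Rp against 41.7, 59.8 and 50% in FRp (-1.97 ± 0.59, adjusted p = 0.067). All 3 were called lower in Rp, with no overlap between the groups. The RS2Z32 call was lost without Rp replicate 1 (0.235), Rp replicate 2 (0.250), FRp replicate 2 (0.376) or FRp replicate 3 (0.165).

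RS31a I004 stood at 51.4, 33.3 and 31.9% in Rp and 62.3, 64.2 and 91.5% in FRp, and RS40 I006 at 38.5, 46.3 and 28.6% in Rp and 53.8, 48.3 and 57.7% in FRp. In both the groups did not overlap and the difference was not called (adjusted p = 0.264 and 0.579). SR34b I012, in the 3′ UTR, had the opposite order, at 66.7, 76.0 and 60% in Rp and 47.5, 37.4 and 33.8% in FRp (adjusted p = 0.290). RS41 I003, in the 5′ UTR, which overlaps another annotated gene (AT5G52045) and was at 20% or more in Rp only, so that no test is given, stood at 17, 19.5 and 21.8% in Rp and 11.6, 9.60 and 15.2% in FRp. SR34 I011 and RS40 I004 overlapped between the groups (adjusted p = 0.907 and 0.779). The other measured introns of these 7 genes had medians of 0.0883 to 1.01% in Rp and 0.0369 to 0.425% in FRp.

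**Figure D4:**
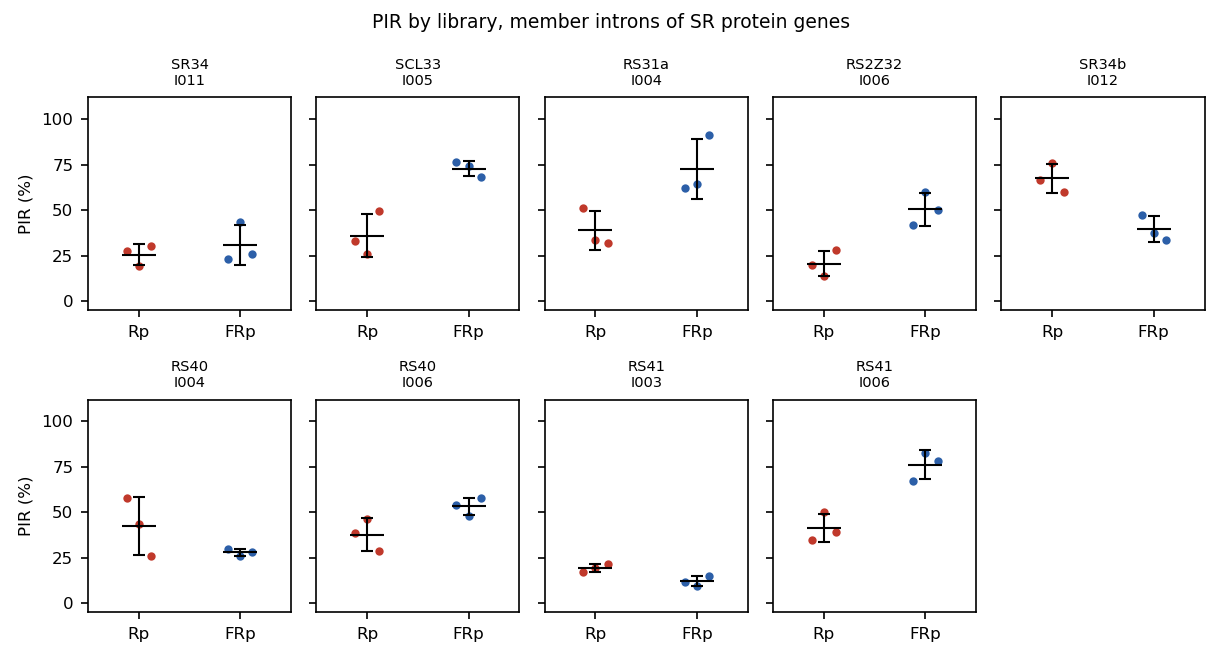
PIR (percent, y axis) in each library for the 9 member introns of SR protein genes, with Rp left of FRp. Points are libraries, the horizontal bar is the mean and the whisker 1 SD (n = 3). RS41 I006, SCL33 I005 and RS2Z32 I006 were called lower in Rp, and SR34b I012 has its 3 Rp libraries above the 3 FRp libraries.

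Most of these introns are parts of a longer intron. In 8 of the 9, the table listed a junction of 488 to 900 nt that shared one end with the member. In RS40 a junction of 782 nt shared its outer ends with I004 and I006, and in RS41 one of 900 nt with I003 and I006, so that both members of each gene lie within one longer intron. The junction of 900 nt in RS41 had 140, 101 and 325 reads in Rp and 52, 75 and 86 reads in FRp, beside 39, 23 and 56 junction reads of I006 in Rp and 38, 29 and 29 in FRp. PIR does not count this longer junction as splicing.

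With the longer junction added to the spliced reads, the alternative described above, RS41 I006 stood at 10.5, 15.6 and 8.63% in Rp against 46.6, 57.5 and 47.5% in FRp. SCL33 I005 then stood at 17.3, 13.7 and 25.2% in Rp against 44.0, 47.0 and 38.0% in FRp. RS2Z32 I006 stood at 5.53, 4.70 and 6.33% in Rp against 14, 15.6 and 13.5% in FRp. In these 3 the groups still did not overlap and the difference was still called (adjusted p = 7.76e-08, 0.0253 and 0.0986), but in pooled PIR all 3 were under 20% in Rp (10.5, 18.8 and 5.76%). On this measure the 3 lay outside the class for which the test is used, so nothing is read from these p-values. RS31a I004 stood at 35.8, 19.2 and 18.1% in Rp and 32, 35 and 41.7% in FRp, and RS40 I006 at 8.29, 15 and 7% in Rp and 15.5, 14.5 and 15.2% in FRp, so that in both the groups now overlapped. The difference of RS41 I003 turned round, to -2.86 points from a main value of 8.21 points. Of the 8 introns, 5 (RS2Z32 I006, RS41 I003, SR34 I011 and both of RS40) were under 20% in both conditions on this measure.

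The mRNA of the genes that hold a member was tested over 16924 genes. Whether gene counts include reads inside retained introns is not given in the sources used here, and a change in mRNA per cell and a change in the share of a cell type cannot be told apart in whole seeds. Of the 620 tested host genes, 75 (12.1%) were higher and 261 (42.1%) lower in Rp (adjusted p under 0.05 and more than 1.5-fold). Over all tested genes 28.8% were higher and 26.8% lower, and over the 10693 with a measured intron of this length 23.3% were higher and 27.1% lower. The median log2 change was -0.40 in the host genes and 0.02 over all genes.

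These changes depend on the normalisation. Without TMM the median of all genes was 0.45 and that of the host genes 0.02, so the host genes lay below all genes on either scale. The split was then 157 higher and 144 lower in the host genes (25.3 and 23.2%), against 44.5% higher and 15.2% lower over all genes. The statement that more host genes were lower than higher holds with TMM and not without it.

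By class, 30 of 289 genes with a member at 20% or more in both conditions were higher and 136 lower in Rp (median log2 change -0.52). Genes with a member in Rp only had 11 of 117 higher and 63 lower (median -0.63), and those with a member in FRp only 35 of 245 higher and 82 lower (median -0.21). Genes with a measured intron of this length and no member had a median of -0.05. The level of the host genes had a median of 15.4 CPM per kb, against 17 CPM per kb in these genes. Among genes with a called intron at 20% or more in both conditions, 3 of 8 with higher PIR in Rp were higher and 1 lower in mRNA, and 7 of 10 with lower PIR in Rp were lower and 0 higher. These counts are on the TMM scale. Over all 289 genes with a member in both conditions 10.4% were higher and 47.1% lower, and nothing is read from the counts.

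**Figure D5:**
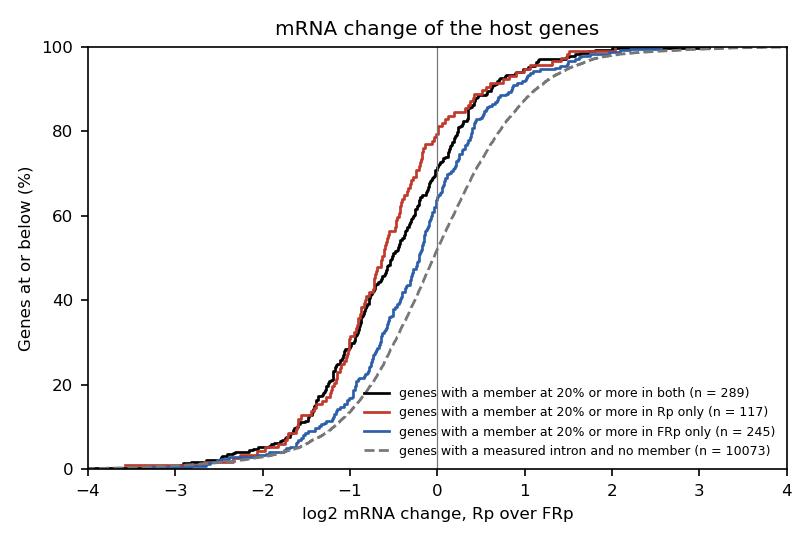
Share of genes (percent, y axis) at or below each log2 mRNA change of Rp over FRp (x axis), for genes with a member at 20% or more in both conditions (black), in Rp only (red) or in FRp only (blue), and for genes with a measured intron of this length and no member (grey, dashed). At their medians the 3 lines of host genes lie left of the dashed line, at log2 changes of -0.52, -0.63 and -0.21 against -0.05.

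Most SR protein genes had less mRNA in Rp on the TMM scale. SCL33 was at 86.6, 85.1 and 70.9 CPM in Rp against 219, 215 and 203 CPM in FRp (log2 change -1.39 ± 0.11, adjusted p = 1.42e-07), RS40 at 86.1, 88.1 and 86.2 CPM in Rp against 213, 212 and 205 CPM in FRp (-1.27 ± 0.09), and RS41 at 217, 189 and 218 CPM in Rp against 312, 323 and 314 CPM in FRp (-0.61 ± 0.10). All 7 genes with a member were called lower in Rp with TMM, and 4 of them without it. Of all 18, 12 were lower and 1 (RSZ22a) higher with TMM, and 6 lower and 1 higher without it. Over all tested genes 26.8% were lower and 28.8% higher with TMM, and 15.2% lower and 44.5% higher without it.

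Genes of the splicing machinery were compared as a list of 28, with 23 of the major and 5 of the minor spliceosome or its helpers. With TMM, 2 of the 28 were higher and 8 lower in Rp, against 28.8% and 26.8% over all genes, and without it 3 and 5, against 44.5% and 15.2%. Their median log2 change was -0.29 with TMM and 0.14 without it, both below the median of all genes on the same scale (0.02 and 0.45). The largest falls were in U2AF35B, a small subunit of the factor that reads the acceptor site (92.4 to 104 CPM in Rp against 269 to 362 CPM in FRp, log2 change -1.70 ± 0.12, adjusted p = 9.20e-08), and in U11-48K, a protein of the minor spliceosome (9.64 to 13.2 CPM in Rp against 25.2 to 28.5 CPM in FRp, -1.27 ± 0.13, adjusted p = 1.50e-06). LSM8, of the U6 snRNP (38.6 to 42.4 CPM in Rp against 18.3 to 20.9 CPM in FRp, 1.03 ± 0.09, adjusted p = 7.34e-07), and U1A, of the U1 snRNP (52.1 to 62.4 CPM in Rp against 30.9 to 40 CPM in FRp, 0.74 ± 0.11, adjusted p = 7.41e-05), were the 2 that were higher. Of the 5 minor spliceosome genes, 3 were lower with TMM and 1 without it. Of the list, 3 genes held a member themselves, PRP39A, U11-48K and U11/U12-65K. The member of PRP39A, I007, shared an end with another junction. With that junction counted as splicing, its pooled PIR went from 27.5% in Rp and 19.1% in FRp to 5.64% and 7.96%, under the limit in both.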

How the data were processed

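Poly(A) RNA of 6 seed libraries was sequenced as paired ends. Per the submitters' notes and the study's methods, reads were aligned with TopHat2 2.1.1 to TAIR10, SAMtools 1.3 was used, and the authors deposited raw counts of reads per gene, per splice junction and per exon–intron boundary. These counts were used as deposited, and no column of another sample was present (0). Strand use and the treatment of reads with several matches are not given in the sources used here. The first boundary column was taken as the one at the lower coordinate, since all 485 alternative site lines with 1 inclusion junction followed genomic order.

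Events were tested when the gene had a mean of over 10 reads and over 0.05 reads per nt in both groups, the event had a mean of at least 10 reads per library in each group, and at least 5 boundary and 5 junction reads in all. The change of boundary against junction reads was fitted with edgeR 4.0.16 (quasi-likelihood, 1 coefficient per library, 1 for the kind of read and 1 for its change in Rp). Gene counts were tested with TMM scaling where a gene passed the same limits in at least one group, and p-values were adjusted by Benjamini and Hochberg over all events or genes. limma 3.58.1 and DESeq2 1.42.0 served as alternatives. As an alternative chosen after seeing the data, other listed junctions that shared one end with an intron were also counted as exclusion. The limits given for 0 junction reads cover counting error only. The SE of a log2 change was derived from the change and its quasi-likelihood F value, with dispersion estimated over the replicates. Introns were placed on TAIR10.1 (RefSeq), where all 699 members had splice site bases at their ends.

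The members, gene lists and tests were chosen with earlier results of these data known. Named introns were those called at 20% or more in both conditions with the largest difference (up to 6 per direction, groups not overlapping), the 5 with the largest difference per direction in one condition only (60 reads or more), the 5 most retained in both (100 reads or more), all of these in introns that overlap no other gene with 20 to 80% of boundary reads on the donor side, the 3 nearest to the limit on either side, the first 5 U12-type members and the first 8 of the product name group by reads, the 3 genes with the most members (4 genes tied and the order of locus names decided), and the 2 largest called changes per direction of the splicing list. The SR protein genes, and introns I019 and I021 of AT4G39050, were chosen after their values were seen. The sequence of 1 intron is not reported here.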

Additional observations from a re-analysis of the deposited data

How the results depend on the processing

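The 699 members became 374 at a limit of 30%, 147 at 50%, 277 at 100 reads or more in each condition and 449 with both boundaries required, and 670 to 750 with a library left out. Of the members, 89 were called for a change of PIR, 19 of them at 20% or more in Rp only and 52 in FRp only, where the rule fixes the direction, beside 699 of 28466 over all events. Since PIR chose the members, nothing is read from the 89 or from the counts of called members below. The 89 became 21 with limma, 49 at an adjusted p under 0.05, 41 without the filter on low counts, 49 at 30 reads per library or more, 55 with the E1I and 51 with the IE2 boundary alone, and 45 to 61 with a library left out. For the 18 at 20% or more in both conditions, the counts were 1 with limma (0 higher, 1 lower), 10 at an adjusted p under 0.05, 8 without the filter, 10 with the IE2 boundary alone and 8 to 13 with a library left out (8 without Rp replicate 1, 9 without FRp replicate 1 or 2). Robust variance estimates and a difference over 10 points gave 90 and 89 calls. The causes of these losses were not tested.

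Host genes higher or lower in Rp, 75 and 261, became 157 and 144 without TMM and 41 and 148 at more than 2-fold, and ranged over 69 to 78 and 252 to 270 with a library left out. With other junctions counted as exclusion, 648 members were left, 88 members were called, 16 of them among the 311 (8 higher, 8 lower), and the difference turned to -2.86 points for RS41 I003, -0.44 for AT1G06960 I006 (main value 0.79) and -7.03 for AT1G53780 I010 (main value 0.54).

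Equal replicate numbers showed no clear pairing of the libraries. Deviations from the group means correlated at 0.0096, -0.0020 and 0.0083 for splicing ratios and at 0.039, -0.113 and -0.052 for genes. For splicing ratios 4 of 6 libraries correlated best with their own number, and for genes 1 of 6. With 3 libraries in a group, this check cannot exclude a pairing. With a replicate block, 39 members were called, 8 of them at 20% or more in both conditions (3 higher, 5 lower), and 75 host genes were higher and 260 lower. Reads per intron limit the precision, with medians of 107 in Rp and 108 in FRp.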

Other observations

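In a few genes most measured introns were retained. MAF4 (AT5G65070), a MADS-box relative of the flowering repressor FLC, had 4 measured introns and all were members (it tied with the 3 genes of the report that hold 4 members and came last by locus name), at 51.4 to 69.8% in Rp and 50.1 to 71.5% in FRp, with mRNA lower in Rp (log2 change -1.78). AT2G46980, which encodes a meiotic chromosome axis protein (asynaptic), had 3 members among 4 measured introns, at 3.23 to 8.43% in Rp and 67.5 to 88.1% in FRp, and the mRNA was lower in Rp (log2 change -2.83). In DRB5, a double-stranded RNA-binding protein gene, all 3 measured introns were members, at 12.2 to 37.4% in Rp and 26.8 to 40.8% in FRp. These genes were chosen after their values were seen, and the values are given with no test.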
